A study of Mus musculus with 4 samples.

Results

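The epineurium is the connective tissue sheath around a peripheral nerve, and the fibroblasts examined here are the cells of the neonatal mouse sciatic nerve that carried its marker mRNAs. A cell was taken when its library was neonatal, when it held at least 200 genes and at most 10% mitochondrial molecules, and when the molecules of Pi16, Dpp4, Cd55, Clec3b and Sema3c summed to 2 or more. It also had to hold 3 or more molecules of Col1a1, Col1a2 and Dcn together, which mark collagen-making cells, and none of Sox10 (Schwann cells), Pecam1 (endothelial cells), Ptprc (immune cells), or Osr2 and Wif1 (endoneurial cells). This rule took 598 of the 8042 neonatal cells that passed the 2 quality limits. The sorted library gave 356 of them, or 15.4% of its 2306 cells (exact binomial 95% interval 14 to 17%), and the bead library gave 242, or 4.22% of its 5736 cells (3.71 to 4.77%). Intervals cover counting error only.

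Fibroblasts of a nerve lie in nested layers. Endoneurial fibroblasts sit among the axons and Schwann cells, perineurial cells form a flattened barrier around each bundle of axons, and epineurial fibroblasts make the outer, collagen-rich coat. Fibroblasts that carry PI16 and DPP4 are found in the outer layers of many organs, where they line collagen bundles and vessels, and nerve fibroblasts after birth are still laying down the matrix that lets the nerve lengthen with the limb.

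All mice were Wildtype CD1. The neonatal nerves came from mice of postnatal day (P) 3 to P4, whose cells were sorted by fluorescence (FACS) as nucleated and viable, and from mice of P2 to P3, whose cells were cleared with myelin removal beads. The adult libraries, both made with beads, were 1 from uninjured nerve and 1 from the distal nerve 3 days after resection (3 DPI). The sequencing method was Drop-seq, which counts unique molecular identifiers (UMIs) at the 3′ ends of mRNAs, so levels of different genes can be set side by side without dividing by length. With 1 library per preparation, the sort, the age in days and the mice cannot be told apart between the neonatal libraries.

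The 4 libraries held 2000 to 6200 barcodes and 4513814 to 8123103 UMIs, and 12268 barcodes passed the quality limits. Between any 2 libraries 0 to 3 barcode sequences were shared, and no neonatal epineurial barcode was found in both neonatal libraries. The same rule took 381 cells of the uninjured and 462 cells of the 3 DPI library, 19.6% and 20.3% of the cells kept. The median depth of an epineurial cell was 2276.5 UMIs and 1124 genes in the FACS library and 1524 UMIs and 827 genes in the bead library, against 2026 and 2390 UMIs in the uninjured and 3 DPI libraries. Summed over cells, the neonatal epineurial counts came to 1028516 and 412188 UMIs, so values of the FACS library are the more precise.

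The label was first set against the marker mRNAs. Because the rule used 5 of these genes, their values are a description of the choice and carry no test. Clec3b, which encodes the secreted protein tetranectin, was counted in 78.1% of the FACS and 73.6% of the bead cells, and Sema3c, which encodes a secreted semaphorin, in 76.4% and 59.5%. The surface peptidase gene Dpp4 was counted in 30.3% and 9.5%, Pi16, which encodes a peptidase inhibitor of the cell surface, in 27.0% and 15.3%, and Cd55, which encodes a complement regulator, in 20.5% and 8.68%. Clec3b and Sema3c thus brought in most neonatal cells, while Pi16 was counted in 49.6% of the uninjured and 66.0% of the 3 DPI cells under the same rule. Thinned to 500 UMIs a cell, which leaves out 11 FACS and 16 bead cells, Pi16 remained in 14.8% and 7.08%, Dpp4 in 13.3% and 6.19%, and Cd55 in 8.99% and 3.54%. As a background, Schwann cells held a Pi16 UMI in 2.38% and 0.462% of cells, a Dpp4 UMI in 1.3% and 0.0769% and a Cd55 UMI in 1.73% and 0.231%. Their Sema3c shares were 9.96% and 8.69%, so Sema3c was the least exclusive gene of the rule.

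**Figure D1:**
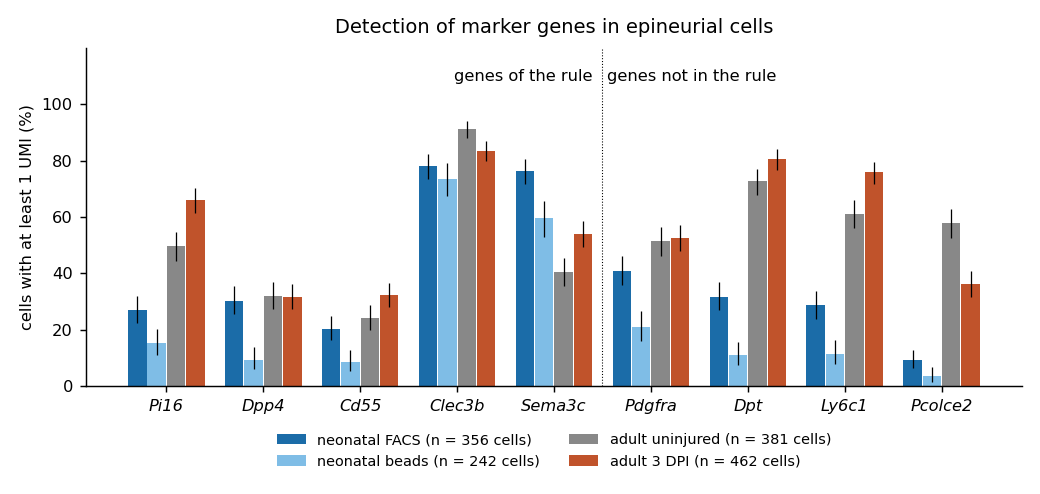
Share of epineurial cells with at least 1 UMI of each marker, in percent, for the 4 libraries, with exact binomial 95% intervals (counting error only); genes of the rule stand left of the dotted line. In neonatal cells Clec3b and Sema3c stand above 59% and Pi16, Dpp4 and Cd55 below 31%, and the shares of Dpt, Ly6c1 and Pcolce2 are lower than in adult cells.

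Epineurial markers that the rule did not use were present in part. The matrix gene Dpt was counted in 31.7% of the FACS and 11.2% of the bead cells, against 72.7% and 80.5% of the uninjured and 3 DPI cells. The surface antigen gene Ly6c1 was counted in 28.7% and 11.6% against 61.2% and 75.8%, and the collagen-processing gene Pcolce2 in 9.27% and 3.72% against 57.7% and 36.1%. Comp, which encodes a matrix protein of tendon and cartilage, was at 0.562% and 0% against 23.6% and 9.74%. The mesenchymal receptor gene Pdgfra was counted in 41.0% and 21.1% of neonatal cells. Each of the epineurial markers named here outside the rule was thus counted in at most 31.7% of the FACS and 11.6% of the bead cells. Collagen mRNA was part of the rule, so its presence carries no test of identity. The name epineurial is used here for the cells the rule took.

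Members differed in how they met the rule. UMIs of a single marker gene admitted 85 FACS cells (23.9%) and 117 bead cells (48.3%), and the median number of marker UMIs was 5 and 3. Pi16 and Dpp4 were found together in 49 FACS cells (13.8%) and 3 bead cells (1.24%), whereas Clec3b and Sema3c were found together in 205 (57.6%) and 89 (36.8%). At the limit of the rule, the cells with exactly 2 marker UMIs held Col3a1, a fibrillar collagen, at 34538 UMIs per 1e6 (counts per 1e6, CPM) in the FACS and 24501 CPM in the bead library, and those with exactly 1 marker UMI, just outside, held it at 25478 and 18372 CPM. Cells with 3 or more held it at 45684 and 37203 CPM. Dpt was counted in 15% and 7.69% of the cells just inside the limit and in 14.9% and 2.8% of those just outside.

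Schwann cell RNA was present in the members and was unevenly spread among them. Of the 14 Schwann markers other than Sox10, all 14 had a UMI in neonatal members. Their sum was 4661 CPM in the FACS and 4833 CPM in the bead members, against 1313 and 441 CPM in the uninjured and 3 DPI members. Cells with a Sox10 UMI held 67610, 18984, 37111 and 4440 CPM in the same order, so the member sums do not rank the libraries by their share of Schwann RNA. Endothelial cells held 3938 CPM in the FACS and 1345 CPM in the bead library, and immune cells 4918 and 580 CPM. The FACS members were thus near other cells of their library, and the bead members were above them. In the bead library the 46 members admitted by Sema3c alone held 7808 CPM of Schwann markers and the 8 admitted by Pi16, Dpp4 or Cd55 alone held 75274 CPM, against 905 CPM in the 63 admitted by Clec3b alone and 1069 CPM in the 125 members with 2 or more marker genes. Among those 8 was 1 cell with more than 5% of its UMIs in Schwann markers, the only such cell among the bead members. In the FACS library the values were 3727 CPM in the 37 cells admitted by Sema3c alone, 2253 CPM in the 7 by Pi16, Dpp4 or Cd55 alone, 3411 CPM in the 41 by Clec3b alone and 4987 CPM in the 271 cells with 2 or more marker genes, 2 of which were over 5%. For Schwann genes called in the age comparison below, the value without members of a single marker gene is also given, an alternative chosen after seeing the data.

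Summed markers of other cell types can be set beside the 4 epineurial markers outside the rule. Those 4 came to 919 CPM in the FACS and 352 CPM in the bead members. Endothelial cells held 792 and 760 CPM of the same 4, and endoneurial cells 28.4 and 0 CPM. In the bead members the smooth muscle and pericyte, tendon and erythroid sums below were larger than the epineurial sum. Endothelial markers came to 153 and 235 CPM, vascular smooth muscle and pericyte markers to 549 and 604 CPM, immune markers to 30.1 and 12.1 CPM, tendon markers to 445 and 398 CPM and skeletal muscle markers to 9.72 and 19.4 CPM in the FACS and bead members. Erythroid markers were at 10.7 CPM in the FACS and 2312 CPM in the bead members, among them the hemoglobin genes Hbb-bs (5.83 against 1274 CPM) and Hba-a1 (1.94 against 873 CPM). The adult members, also from bead libraries, held 2054 and 597 CPM.

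Fibrillar collagen genes were the most abundant in the neonatal epineurial cells, with mitochondrial and ribosomal protein genes set aside. Col1a2 was at 46458 CPM in FACS and 31973 CPM in bead members, and Col1a1 at 25182 and 19736 CPM, both of them genes of the rule. Col3a1, which the rule did not use, was at 43945 and 32864 CPM, and Sparc, which encodes a collagen-binding glycoprotein, at 19815 and 21665 CPM. Next came Dcn, a rule gene that encodes the proteoglycan decorin, at 10156 and 10122 CPM. Postn, which encodes the matricellular protein periostin, was at 6511 and 6315 CPM, and Gpc3, a cell-surface proteoglycan gene, at 3733 and 2955 CPM. Of the 15 most abundant genes outside the mitochondrial and ribosomal protein genes, 5 come from imprinted loci, with Gnas at 7955 and 7763 CPM, the noncoding RNA H19 at 6409 and 6994, Igf2 at 6127 and 5529, Meg3 at 5150 and 4821 and Dlk1 at 5144 and 4738. The others were Malat1, Fstl1 and Actb.

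**Figure D2:**
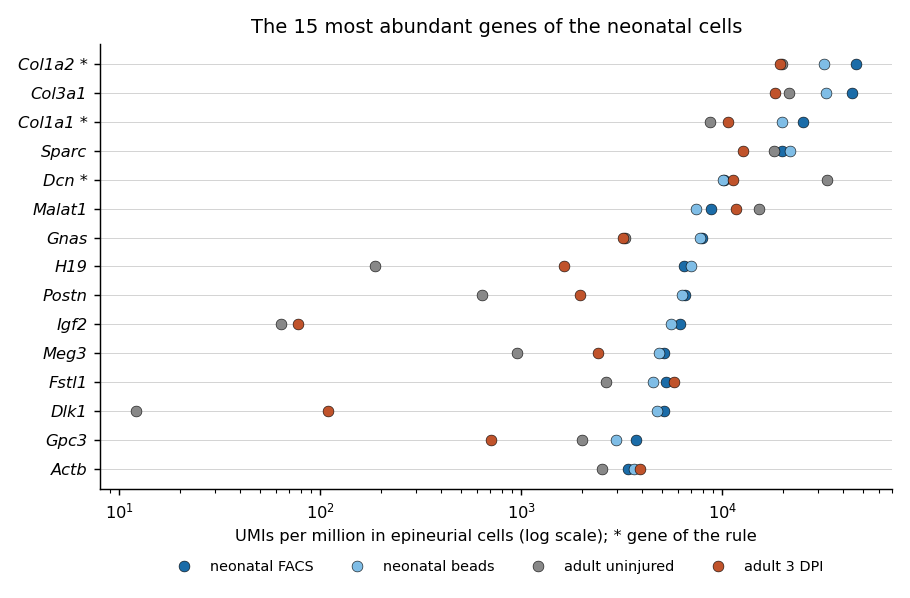
Levels in epineurial cells of the 15 genes most abundant in the neonatal cells, as CPM on a log axis, 1 point per library; an asterisk marks genes of the rule. The neonatal points lie close together, and those of Igf2 (6127 and 5529) and Dlk1 (5144 and 4738) lie farthest above the adult points.

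Some of these abundant genes are neighbours in the genome (GRCm38.p6, the assembly of mm10). Igf2 lies at chr7:142650768-142666816 and H19 at chr7:142575530-142578146, 72.6 kb apart, and Dlk1 at chr12:109452485-109463336 and Meg3 at chr12:109540996-109571729, 77.7 kb apart. Col3a1 (chr1:45311538-45349706) lies 24.6 kb from Col5a2 (chr1:45374331-45503282). Igf2 and Meg3 were among these abundant genes, and the 100 bases before an annotated start of each are shown from RefSeq. They run 5′ to 3′ on the strand of the gene. In capitals are matches to the motif CCAAT, read on the other strand as ATTGG, and to the motif TATAAA, read on the other strand as TTTATA. The Igf2 window is chr7:142666817-142666916 on the minus strand, for 1 of 4 starts listed, and the Meg3 window is chr12:109540896-109540995 on the plus strand, for 1 of 2 listed.
Igf2: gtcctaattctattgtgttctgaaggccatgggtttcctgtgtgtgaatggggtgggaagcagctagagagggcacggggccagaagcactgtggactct
Meg3: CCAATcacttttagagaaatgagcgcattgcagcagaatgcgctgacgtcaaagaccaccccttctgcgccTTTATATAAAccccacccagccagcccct
The Meg3 window held CCAAT from 100 bases and TATAAA from 25 bases before the start, the latter overlapping TTTATA, and the Igf2 window held neither. Of 32851 promoters, 18.9% held CCAAT and 5.56% held TATAAA on either strand in a window of this length. These matches describe letters in the sequence, and the data hold no measurement of binding.

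The FACS and bead members were set side by side without a test, since each is 1 library. Of 6839 genes with at least 20 UMIs in either, 472 were at least 2-fold higher in FACS and 197 at least 2-fold higher in bead members, and 46 and 24 were at least 4-fold apart. Besides the hemoglobin genes, the bead members held more of the ribosomal protein gene Rps16 (347 against 31.1 CPM). The FACS members held more of Gm10263 (1000 against 165 CPM). The cartilage collagen gene Col2a1 was at 46.7 CPM in FACS members, from 48 UMIs, and at 0 in bead members. Each of the 15 abundant genes above differed by less than 2-fold between the libraries.

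Dividing cells were counted by a UMI of Top2a or Mki67, which are transcribed in cells that replicate and divide. There were 25 of 356 such FACS members and 17 of 242 such bead members, 7.02% in each, against 2 cells (0.525%) in the uninjured and 38 cells (8.23%) in the 3 DPI library. Thinned to 500 UMIs a cell, the shares were 4.35%, 3.98%, 0% and 2.67%. Leaving out the members admitted by Sema3c alone gave 5.96% and 4.08% in the FACS and bead libraries, and keeping only members with 2 or more marker genes gave 5.9% and 3.2%, so the bead value rested on cells of a single marker gene more than the FACS value did. None of the 35 genes tested in a cell cycle list passed the test between ages described next (median log2 difference 0.88, against 0 over all genes).

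The comparison of neonatal with adult epineurial cells asked what the same marker rule takes at the 2 ages. Imprinted growth genes such as Igf2 and Dlk1 were higher in the neonatal cells, and complement and chemokine genes such as C3 and Cxcl14 were lower. UMIs were summed over the members of each library, 2 neonatal libraries were tested against 2 adult ones with edgeR's quasi-likelihood test, the genes of the rule were left out, and p-values were adjusted by the Benjamini-Hochberg method over 9365 genes (FDR, called at 0.05). Of these, 66 (0.705%) were higher and 153 (1.63%) lower in neonatal cells, and the median log2 difference over all genes was 0. Without the neonatal FACS library 18 genes were called and without the neonatal bead library 88, so the number of calls rested on both. In these fits the lone neonatal library is assumed to vary like the adult ones. Of the 24 genes named by the size of their difference, Igf2, Prss35, Pmp2, Ednrb, Cxcl14, C3 and Trf were called in both, while Dlk1 (6.27 without the FACS library) lost its call there. Levels were fully apart, with both neonatal libraries above both adult ones, for 2328 genes (24.9%), and the reverse held for 2133 (22.8%), so separation of the groups by itself was common. The adult pair differs in injury, and no test of injury was made. Both adult libraries were made with beads, so only the neonatal bead library matches them in preparation. The neonatal FACS library differs from them in age and preparation together, and these cannot be told apart there. The part of preparation in the age calls was not tested.

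Imprinted genes and the insulin-like growth factor axis came first. Igf2, a growth factor of fetal tissues, was at 6127 and 5529 CPM in the FACS and bead members and at 63.8 and 77.7 CPM in uninjured and 3 DPI cells. The ages did not overlap, and the log2 difference was 6.33 ± 0.47 (SE, FDR = 0.00396 by edgeR). Dlk1, which encodes a membrane protein of immature mesenchyme, was at 5144 and 4738 CPM against 12.1 and 109 CPM, a log2 difference of 6.35 ± 0.92 (FDR = 0.0214). The maternally expressed cell cycle inhibitor gene Cdkn1c was at 1725 and 1451 CPM against 183 and 229 (2.92 ± 0.34, FDR = 0.0126), and Mest, which encodes a hydrolase-like protein, at 2261 and 1594 against 149 and 266 (3.21 ± 0.41, FDR = 0.0158). Of 18 imprinted growth genes tested, 6 were higher in neonatal cells and none lower (Igf2, Dlk1, Cdkn1c, Mest, Peg3 and Zim1), with a list median of 2.2. The other 12 did not pass. H19 was at 6409 and 6994 CPM against 186 and 1630 (log2 difference 2.92 ± 0.86, FDR = 0.141), and Meg3 and Gnas were at log2 differences of 1.57 (FDR = 0.16) and 1.23 (FDR = 0.198), so these abundant RNAs were above both adult levels but within the spread of the test. Without the FACS library 1 gene of the list was called and without the bead library 6.

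Of 13 genes of the insulin-like growth factor axis, 3 were higher in neonatal cells and none lower, with a median of 0.75. Beside Igf2 these were the RNA-binding protein gene Igf2bp3 (log2 difference 3.17, FDR = 0.0368) and Igfbp2, which encodes a binding protein for the factors. Igfbp2 was at 69 and 31.5 CPM in neonatal cells and at 0 in both adult libraries, at least 47.4-fold higher when 3 UMIs are allowed over the adult cells. Igf1 was at 1413 and 805 CPM against 1044 and 1587 CPM (log2 difference −0.26 ± 0.40, FDR = 0.812), and its ages overlapped.

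Matrix genes gave calls in both directions. Of 14 fibrillar and associated collagens, only Col11a1 was called, at 285 and 143 CPM against 17.6 and 23.5 (3.36 ± 0.41, FDR = 0.0158), and the list median was 0.79. Col3a1 was at 43945 and 32864 CPM against 21463 and 18230 and did not pass (0.91, FDR = 0.511). The microfibril gene Mfap2 was higher, at 1703 and 1431 CPM against 271 and 359 (2.29 ± 0.33, FDR = 0.0216), whereas 2 of the 28 elastic fibre genes tested, Efemp1 and Fbln7, were lower. Postn was at 6511 and 6315 CPM against 638 and 1948 (2.32 ± 0.55, FDR = 0.0835), and its test was not passed in the full set. Among members with 2 or more marker genes it was passed (2.49, FDR = 0.0434). Of 31 small proteoglycan and matricellular genes, 5 were lower and none higher (median −0.71), among them Comp, Ecm1 and Spon1 (−3.31), and 0 were lower without the FACS and 1 without the bead library. Of 31 proteases and inhibitors, 4 were lower, among them Htra1, Mmp3 and Plau (median −0.68). Of 14 basement membrane genes, Nid2 was higher (1.85). None of the 14 myofibroblast genes passed (median 0.36).

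Signalling genes gave few calls. Hhip, which encodes a hedgehog-binding protein and is itself a hedgehog target, was at 227 and 272 CPM against 20.9 and 26.1 (3.36 ± 0.29, FDR = 0.00491), the only call among 9 hedgehog genes (median 0.75). Of 24 WNT genes, the WNT and BMP antagonist gene Sostdc1 was higher, at 166 and 492 CPM against 14.3 and 13.7 (4.49 ± 0.57, FDR = 0.0158), and the WNT-binding gene Sfrp4 was lower, at 706 and 711 CPM against 3333 and 2645 (−2.13 ± 0.38, FDR = 0.0393). Sostdc1 was also counted in Schwann cells. In members with 2 or more marker genes it was at 104 and 229 CPM against 7.61 and 5.66 (4.63, FDR = 0.0095 by edgeR). The part of Schwann RNA in its level was not tested. Of 29 TGF-beta and BMP genes, Bmp3 was higher, at 113 and 104 CPM against 20.9 and 16.3 (2.53 ± 0.32, FDR = 0.0158), and Gdf10 and Bmper were lower, Gdf10 at 51.5 and 29.1 CPM against 637 and 390 (−3.66, FDR = 0.0158). Ligands and antagonists of one pathway thus went both ways. Of 31 growth factor receptors, Agtr2, Ednrb and Ntrk3 were higher and none lower. Ednrb, also a Schwann cell gene, was at 126 and 303 CPM in all neonatal members. It was at 77.5 and 78 CPM in those with 2 or more marker genes. Agtr2, which encodes the type 2 angiotensin receptor, was at 563 and 551 CPM against 4.4 and 53.5 (4.21 ± 0.78, FDR = 0.0429). Pdgfra was at 218 and 165 CPM against 432 and 328 and did not pass (−1.03 ± 0.33, FDR = 0.181). The growth factor Mdk was at 1012 and 784 CPM against 53.9 and 90.7 (3.61 ± 0.37, FDR = 0.00904). In the list of nerve ligands that the study named, partly from the 3 DPI data, 3 of 82 were higher and 9 lower, which is not independent evidence of direction.

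Complement and chemokine genes were lower in the neonatal cells. C3, the central complement component, was at 6.81 and 19.4 CPM in neonatal and at 1458 and 1938 CPM in uninjured and 3 DPI cells (log2 difference −7.21 ± 0.56, FDR = 0.00447). It was counted in 1.12% and 1.24% of neonatal against 63.8% and 76.8% of adult members. C4b was at 15.6 and 12.1 CPM against 368 and 520 (−4.96 ± 0.36, FDR = 0.00396). The chemokine gene Cxcl14 was at 1.94 and 4.85 CPM against 891 and 694 (−8.09 ± 0.54, FDR = 0.00396). Cxcl13 was not counted in either neonatal library and was at 339 and 97.2 CPM in adult cells, at least 89.9-fold lower. Of 22 such genes tested, 11 were lower and none higher (among them Ackr3, C1ra, C3, C4b, Ccl7, Cxcl1, Cxcl12, Cxcl13, Cxcl14 and Il6), with a median of −2.16. Immune cell markers summed to 30.1 and 12.1 CPM in neonatal members and to 15.4 and 312 CPM in uninjured and 3 DPI members. The part of immune RNA in these differences was not tested. Without the FACS library 3 and without the bead library 6 of these genes were called.

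Other genes lower in neonatal cells included enzymes and carriers. Inmt, a methyltransferase gene, was at 1.94 and 0 CPM against 1364 and 266, and Apod, which encodes a lipid-binding protein, at 409 and 512 CPM against 11576 and 3115 (−4.09 ± 0.74, FDR = 0.0407). Pla1a and Gda were at 0 in both neonatal libraries and were at least 47-fold and at least 40.7-fold lower. Comp was at 3.89 and 0 CPM against 792 and 112, and the liver X receptor gene Nr1h3, not counted in neonatal cells, was at least 11-fold lower. Of 24 tested genes typical of Pi16 and Dpp4 fibroblasts, 5 were lower and none higher (Ackr3, Anxa3, Gfpt2, Procr and Uap1), with a median of −1.27. None of these 5 was called when either neonatal library was left out. Of 26 immediate early and heat shock genes, which cells switch on rapidly when stimulated, 8 were lower and none higher (median −2.39), with Fosb at 44.7 and 133 CPM against 929 and 505 (−3.14 ± 0.59, FDR = 0.0452). None was called without the FACS library and 5 without the bead library. Of 50 mesenchymal transcription factor genes, 1 was higher (Peg3) and 2 were lower, among them Cebpb, and none of 10 Hox genes passed.

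Genes known from Schwann cells were among those higher in neonatal members. Pmp2, a myelin lipid-binding protein gene, was at 65.1 and 80.1 CPM against 0 and 0.653, and Mag, a myelin glycoprotein gene, at 37.9 and 46.1 CPM against 2.2 and 0.653. In cells with a Sox10 UMI the same genes were at 978 and 93.9 CPM and at 628 and 151 CPM. In members with 2 or more marker genes Pmp2 was at 71.2 CPM in the FACS and 0 in the bead library and Mag at 43.7 and 4.59 CPM, and neither gene entered the test. Ednrb, an endothelin receptor gene of non-myelinating Schwann cells, was at 126 and 303 CPM in all members and at 77.5 and 78 CPM in those with 2 or more marker genes (log2 difference 3.65, FDR = 0.00843). Sostdc1, at 1106 and 1994 CPM in Schwann cells, kept its call there (4.63, FDR = 0.0095). Igf2 (6.27, FDR = 0.00315), Dlk1 (6.31, FDR = 0.0172) and the protease-like gene Prss35 (5.89, FDR = 0.00315) kept theirs too. In Schwann cells those 3 genes were low, at 240 and 179, 213 and 141, and 18.8 and 21.9 CPM.

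**Figure D3:**
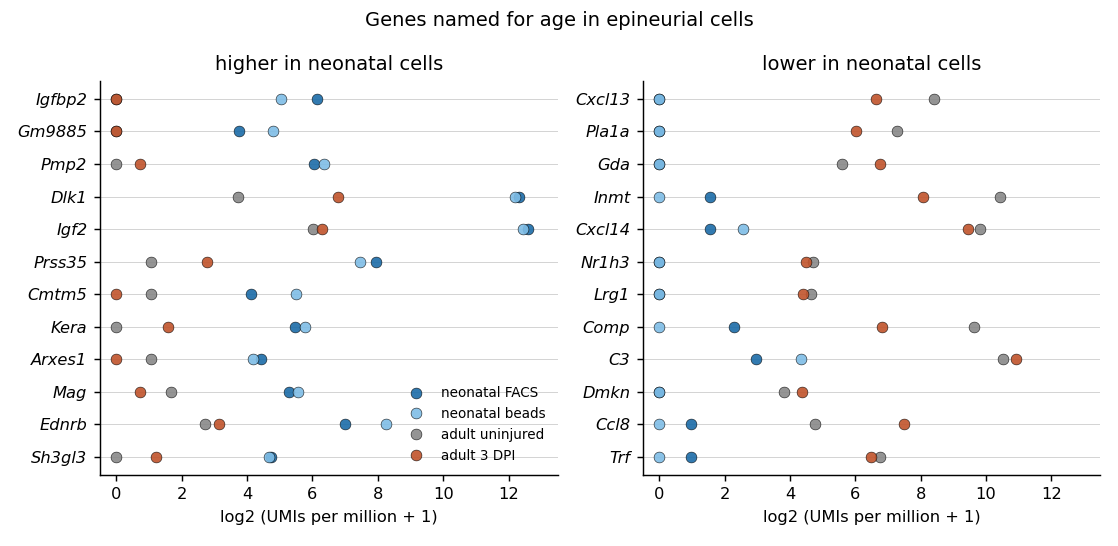
Levels in epineurial cells of the genes named for the age comparison, as log2(CPM + 1), 1 point per library, so that a library with no UMI lies at 0. Neonatal points lie to the right of adult ones in the left panel, as for Igf2 (6127 and 5529 CPM against 63.8 and 77.7), and to their left in the right panel, as for C3 (6.81 and 19.4 CPM against 1458 and 1938).

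The epineurial cells were then compared with the endoneurial cells of the same libraries, to see how the outer and inner fibroblasts of the neonatal nerve differ. Endoneurial cells were those with 2 or more UMIs of Osr2, Wif1, Etv1, Meox1 and Sox9 together, the same collagen limit, and none of the epineurial or of the Schwann, endothelial and immune genes, which gave 59 FACS and 115 bead cells. Elastic fibre, WNT and hedgehog genes were more often higher than lower in the epineurial cells, and immediate early genes more often lower. Both sides were chosen by genes of these cells, the gate genes were left out, and the calls describe that split. Of 5675 genes tested with the library as a block, 388 (6.84%) were higher and 286 (5.04%) lower in epineurial cells, with a median log2 difference of −0.02. The direction was the same in both libraries for 672 of the 674 genes. List counts depend on the model. Without the library block and by DESeq2, respectively, 13 and 9 elastic fibre genes, 8 and 4 WNT genes and 4 and 3 hedgehog genes were higher, and 2 and 6 immediate early genes were lower.

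Secreted regulators of BMP and WNT signalling marked the epineurial side. Chrdl1, a BMP antagonist gene, was at 186 and 158 CPM in FACS and bead epineurial cells and at 0 in both endoneurial groups, at least 29.7-fold higher. Sfrp2, a WNT-binding protein gene, was at 221 and 89.8 CPM against 0 and 0, at least 30.7-fold higher, and Sfrp4 was at 706 and 711 CPM against 8.13 and 7.82 (log2 difference 6.50 ± 0.34). Of 16 WNT genes, 12 were higher and 1 lower (median 1.35), including Rspo1 at 44.7 and 92.2 CPM against 0 and 3.91 and the ligand gene Wnt2 at 51.5 and 48.5 CPM against 0 and 3.91. The 12 include Sostdc1, also counted in Schwann cells, and the part of Schwann RNA in that call was not tested. Of 19 TGF-beta and BMP genes, 12 were higher and 2 lower (median 1.46). The activin-binding gene Fst was at 342 and 245 CPM against 16.3 and 15.6 (4.25 ± 0.36, FDR = 2.02e-17), and Tgfbi was lower, at 653 and 745 CPM against 2503 and 2223 (−1.69 ± 0.15).

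Of 7 hedgehog genes, 5 were higher in epineurial cells and none lower (median 2.51). Hhip was at 227 and 272 CPM against 8.13 and 0, and the coreceptor gene Gas1 at 332 and 243 against 24.4 and 11.7 (4.05 ± 0.35). The coreceptor genes Boc and Cdon were higher too, Boc at 50.6 and 84.9 CPM against 0 and 15.6 (3.16 ± 0.60) and Cdon at 57.4 and 31.5 against 12.2 and 3.91 (2.51 ± 0.65). For each of these named genes the epineurial cells were above the endoneurial cells in both libraries.

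Elastic fibre and matricellular genes were the other main group. Of 27 elastic fibre and crosslinking genes, 18 were higher and 1 lower (median 1.57). Mfap5, a microfibril gene, was at 2235 and 2341 CPM against 240 and 356 (3.02 ± 0.17, FDR = 3.99e-27), the elastin gene Eln at 91.4 and 94.6 against 0 and 3.91, Fbn1 at 1490 and 869 against 321 and 496 and the crosslinking enzyme gene Loxl1 at 363 and 323 against 48.8 and 66.4. Of 28 small proteoglycan and matricellular genes, 16 were higher and 4 lower (median 1.52). Postn was at 6511 and 6315 CPM against 886 and 746 (3.05 ± 0.15, FDR = 4.16e-31) and Aspn at 2247 and 2048 against 280 and 391 (2.75 ± 0.17), while Lum was lower, at 761 and 500 against 2787 and 2645 (−2.05 ± 0.15). Of 13 collagens, 7 were higher and 3 lower (median 0.4). Col12a1 was at 422 and 325 CPM against 106 and 117 (1.81 ± 0.23).

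Genes of Pi16 and Dpp4 fibroblasts that the gates did not use were also higher, 11 of 17 with none lower (median 1.22). Ly6a was at 899 and 478 CPM against 4.06 and 7.82 (6.85 ± 0.37), Dpt at 509 and 206 against 8.13 and 0, and Igfbp6 at 2078 and 3515 against 280 and 793 (2.54 ± 0.17). Agtr2 was at 563 and 551 CPM against 126 and 35.2 (2.88 ± 0.24) and the lipase gene Lpl at 832 and 721 against 77.2 and 50.8 (3.67 ± 0.23). Gap43, a growth-associated protein gene best known from neurons and immature Schwann cells, was at 149 and 60.7 CPM against 0 and 0, at least 20.7-fold higher. In cells with a Sox10 UMI it was at 4.69 and 1.12 CPM.

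The endoneurial side was marked by other matrix and stress genes. Epyc, a small proteoglycan gene, was at 44.7 and 41.2 CPM in epineurial and 565 and 770 CPM in endoneurial cells (−3.79 ± 0.22, FDR = 4.12e-27), and Col28a1, a collagen gene of nerve, at 25.3 and 26.7 against 390 and 270 (−3.64 ± 0.30). Apod was at 409 and 512 CPM against 3100 and 5693 (−3.12 ± 0.16) and Col11a1 at 285 and 143 against 1203 and 774 (−2.14), so both genes were lower in neonatal epineurial than in neonatal endoneurial cells. Igfbp2 was at 69 and 31.5 CPM against 483 and 281 (−2.83 ± 0.25). Of 17 immediate early genes, 9 were lower and none higher (median −1.55), with Fos at 98.2 and 539 CPM against 626 and 2028 (−2.17 ± 0.17) and Egr1 at 156 and 412 against 735 and 1372. The chemokine genes Ccl2 (28.2 and 29.1 against 297 and 250 CPM) and Ccl11 (155 and 143 against 662 and 989 CPM) were lower, and complement and chemokine genes as a list were divided, 5 higher and 5 lower of 13. Of 13 basement membrane genes 1 was higher and 4 lower, of 22 cell cycle genes 1 was higher and 1 lower, and none of 7 Hox genes passed.

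Imprinted genes gave small differences between the inner and outer cells. Dlk1 was at 5144 and 4738 CPM in epineurial and 5281 and 5049 CPM in endoneurial cells (log2 difference 0.01 ± 0.13, FDR = 0.988), H19 differed by 0.03 (FDR = 0.95) and Igf2 by 0.43 (FDR = 0.015), and 5 of 17 imprinted genes were higher with none lower (median 0.37). Without the block and by DESeq2, 1 imprinted gene was higher in each. Pdgfra was at 218 and 165 CPM against 199 and 324 (−0.33 ± 0.22, FDR = 0.426). Schwann markers were higher in the epineurial sums, 8 of 9 tested with Ngfr lower (median 1.07). Without members of a single marker gene 3 were higher and 1 lower (median 0.34), and by DESeq2 and without the block 0 were higher and 1 lower. The erythroid markers were higher as well, 3 of 3. The part of these transcripts in other calls was not tested.

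Against perineurial cells the epineurial cells were higher in Sfrp2, Sfrp4, Lpl and several imprinted genes, and lower in Acta2, Tagln and Myh11. Perineurial cells were those with 2 or more UMIs of Slc2a1, Casq2, Msln, Cldn1 and Perp under the same limits, 30 in the FACS and 74 in the bead library, and 19 of them also met the endoneurial rule. Of 5271 genes tested, 144 (2.73%) were higher and 87 (1.65%) lower in epineurial cells, in both libraries for 230 of 231, with a median of 0. With library sizes in place of the trimmed-mean scaling 85 were higher and 92 lower and the median of all genes moved to −0.16, so the share of higher calls depends on the scaling, and small differences are read relative to that shift.

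Dpt was at 509 and 206 CPM in epineurial and at 0 in both perineurial groups, at least 37.1-fold higher, and Sfrp2 was at least 16.1-fold higher. Ly6a was at 899 and 478 CPM against 0 and 13.2 (6.53 ± 0.48, FDR = 3.49e-05), Lpl at 832 and 721 against 35.8 and 0 (5.78 ± 0.45, FDR = 3.49e-05) and Sfrp4 at 706 and 711 against 26.9 and 13.2 (5.35 ± 0.35, FDR = 2.47e-05). Wnt2 was at 51.5 and 48.5 CPM against 0 and 0, at least 4.45-fold higher. Of 15 WNT genes, 4 were higher and 1 lower (median 0.14), the latter being Sfrp5 at 165 and 243 CPM against 609 and 878 (−1.71 ± 0.19). Of 7 lipid genes, Lpl was the 1 higher and 2 were lower, among them Apod at 409 and 512 CPM against 689 and 1538 (−1.04 ± 0.21, FDR = 0.0147). Of 17 imprinted genes, 12 were higher and none lower (median 0.9), but 6 were higher without the trimmed-mean scaling, 8 by DESeq2 and 2 without the library block. Whether this differs from the endoneurial comparison was not tested. Dlk1 was at 5144 and 4738 CPM against 1889 and 1677 (1.63 ± 0.15, FDR = 6.87e-05) and Meg3 at 5150 and 4821 against 2667 and 3439 (0.87 ± 0.16, FDR = 0.00738). Elastic fibre genes (11 higher, 1 lower of 26, median 0.76, but 5 higher without the block and 6 by DESeq2) and proteoglycan genes (12 and 1 of 27, median 0.67) were mostly higher where called, and none of 14 basement membrane genes passed.

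Of 12 myofibroblast and contractile genes, 5 were lower and 2 higher (Cthrc1 and Postn), with a median of −0.62. Acta2, the smooth muscle actin gene, was at 55.4 and 121 CPM against 537 and 548 (−2.56 ± 0.28, FDR = 0.000263), Tagln at 37.9 and 50.9 against 313 and 317 (−2.69 ± 0.29), Myh11 at 3.89 and 17 against 170 and 264 (−4.41 ± 0.46) and the tight-junction-associated adhesion gene Cxadr at 36.9 and 53.4 against 331 and 350 (−2.79 ± 0.28). Of 8 vascular smooth muscle and pericyte markers tested, 2 were higher and 5 lower, and the part of mural cell RNA in this result was not tested. Kera, a small proteoglycan gene of cornea and tendon, was at 42.8 and 53.4 CPM against 376 and 284 (−2.66 ± 0.30). Immediate early genes were again lower where called, 8 of 18 with none higher (median −1.02), but 1 was lower without the block and 4 by DESeq2.

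**Figure D4:**
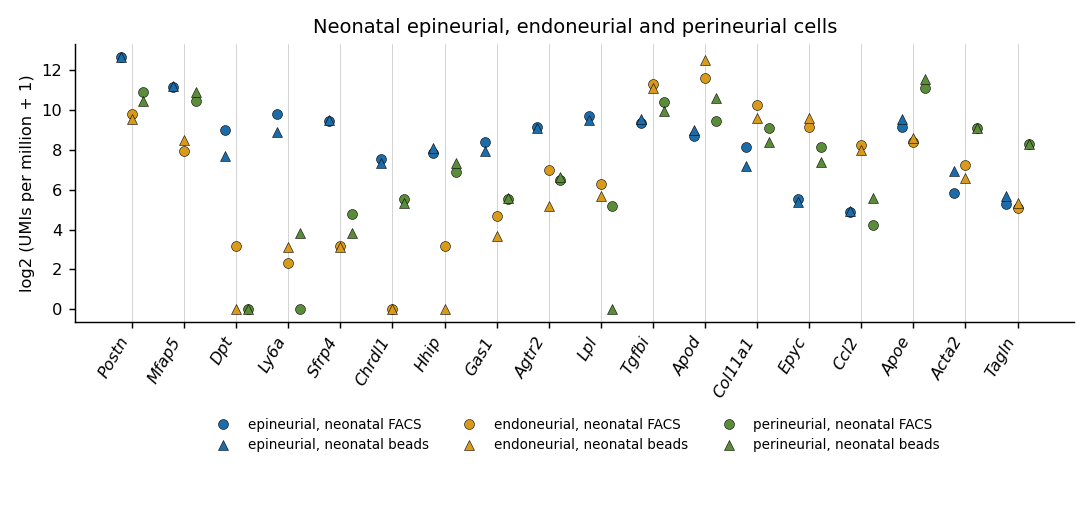
Levels of named genes in epineurial, endoneurial and perineurial cells of the 2 neonatal libraries, as log2(CPM + 1) on the vertical axis, with circles for the FACS and triangles for the bead library, so that a group with no UMI lies at 0. Sfrp4 (706 and 711 CPM) and Postn (6511 and 6315 CPM) are highest in epineurial cells, Epyc (565 and 770 CPM) in endoneurial cells and Acta2 (537 and 548 CPM) in perineurial cells.

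**Figure D5:**
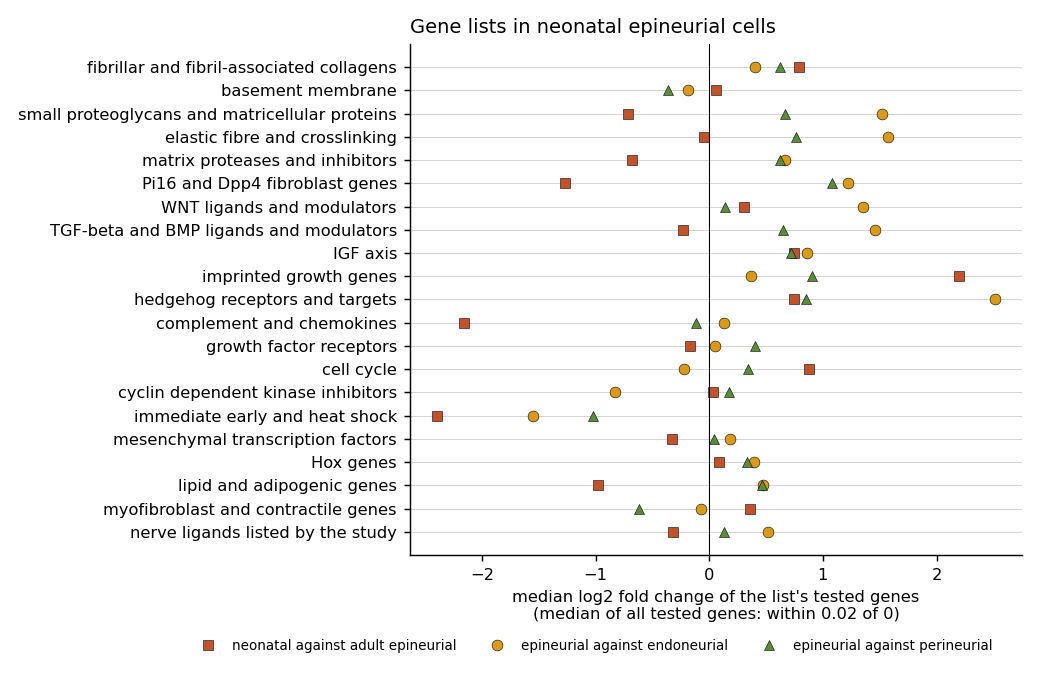
Median log2 difference of each gene list in the comparisons of epineurial cells, 1 symbol per comparison, on a horizontal log2 axis, with the median over all genes tested within 0.02 of 0. Hedgehog genes are highest against endoneurial cells (2.51), imprinted genes are highest in neonatal against adult cells (2.2), and immediate early genes are lowest in neonatal against adult cells (−2.39).

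The last comparison was among the members, between those with a UMI of Pi16 or Dpp4 (155 FACS and 57 bead cells) and those with neither (201 and 185 cells). The rule itself shapes this split, since a member without Pi16 and Dpp4 had to enter through Clec3b, Sema3c or Cd55, so the calls describe the 2 routes into the set and are no independent evidence of subtypes. Surface and matrix genes of Pi16 and Dpp4 fibroblasts were higher in the first group, and the pericyte genes Acta2 and Rgs5 were lower. Of 5988 genes tested with the library as a block, 57 (0.952%) were higher and 17 (0.284%) lower, with the direction the same in both libraries for 72 of the 74 and a median of −0.01. Without the block edgeR called none (279 genes had an unadjusted p under 0.05), DESeq2 called 8, all higher, and removal of likely doublets left 8, so the calls are fragile. Members with Pi16 or Dpp4 had a median of 2079 UMIs in the FACS and 1215 in the bead library, against 2495 and 1593 UMIs in the others. The part of depth in the calls was not tested.

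Ly6a was at 1729 and 1300 CPM in members with Pi16 or Dpp4 and at 330 and 236 CPM in the others (2.39 ± 0.18, FDR = 3.96e-14), and Ly6c1 at 714 and 384 against 110 and 44 CPM (2.79 ± 0.25, FDR = 6.13e-12). In both libraries the first group was the higher. Pcolce2 was at 90.7 and 85.3 CPM against 21.3 and 6.28 (2.44 ± 0.54, FDR = 0.00557), and Igf1 at 2233 and 1492 against 850 and 603 (1.33, FDR = 1.55e-07). Of 21 genes of Pi16 and Dpp4 fibroblasts, 10 were higher and none lower (median 0.91), with 5 of 10 tested higher by DESeq2 and 0 without the block. Acta2 was at 7.16 and 21.3 CPM against 88.6 and 151 (−3.31 ± 0.56, FDR = 0.000119), and Rgs5 at 9.55 and 32 against 131 and 107 (−3.11 ± 0.53, FDR = 0.000119), both of them markers of vascular mural cells, whose part was not tested. Sostdc1 was at 88.4 and 309 CPM against 220 and 547 (−1.11 ± 0.25, FDR = 0.00622), a difference that fell to −0.24 among members with 2 or more marker genes. H19 was at 8993 and 9869 CPM in members with Pi16 or Dpp4 against 4635 and 6147 (0.79 ± 0.12, FDR = 2.75e-05), and Meg3 was higher by 0.74. These 2 differences are small, under the log2 limit of 1 used for naming genes by size.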

How the data were processed

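Single-cell counts from 4 mouse sciatic nerve libraries were used. The authors deposited raw counts of UMIs per gene and barcode from Drop-seq (mm10 per the labels), without normalization, with the aligner's version and the annotation both not given in the sources used here. Genes are the deposited symbols, and no column was left unmapped. Members and gene lists were chosen with earlier results of these data known. Cells were selected as stated above, and no doublets were removed, except in an alternative that dropped the 5% of barcodes with the highest scrublet score.

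UMIs were summed per library and cell group and tested with edgeR 4.0.16 in R 4.3.3 (TMM scaling, filterByExpr, quasi-likelihood test, Benjamini-Hochberg adjustment), with the library as a block within neonatal nerve and age alone otherwise. The test was also run on simulated counts with the same spread for all genes and no library effect. Its outcome is not given here, and it is no measure of error in these data. The neonatal libraries were separate preparations of nerves of different postnatal days, and the number of animals behind each is not known here. With so few libraries a gene's own spread is poorly known, and the test borrows spread across genes. Its prior degrees of freedom were 85.07 in the endoneurial, 10.51 in the perineurial, 5.4 in the age and 50.24 in the Pi16 or Dpp4 comparison. Small p-values thus rest largely on spread shared across genes within these libraries, and they do not measure the spread between animals. A group at 0 was given a floor of 3 UMIs summed over the group.

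Named were, per direction, the 12 genes with the largest fold change among those with FDR under 0.05, an absolute log2 fold change of at least 1, one direction in both libraries (or no overlap of ages) and at least 20 UMIs, of which the text gives a selection. Also named were members of each list with the highest levels or largest differences, the 15 most abundant genes, and, chosen after their values were seen, further called list members and the genes apart between FACS and beads. Alternatives were at least 500 genes, at most 5% mitochondrial UMIs, no hemoglobin-rich cells, 3 marker UMIs, 10 collagen UMIs, DESeq2 1.42.0, no TMM, no filter, no block, 1 adult library and leaving out a neonatal library. After seeing the data, 2 more were added, without members admitted by Sema3c alone and without members of a single marker gene.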

Additional observations from a re-analysis of the deposited data

How the results depend on the processing

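With the library block removed, 328 genes were called against endoneurial cells, 87 against perineurial cells and 0 between members with and without Pi16 or Dpp4, in place of 674, 231 and 74. DESeq2 called 210, 91, 338 and 8 genes for the endoneurial, perineurial, age and Pi16 or Dpp4 comparisons. Without likely doublets the perineurial count was 394 and the Pi16 or Dpp4 count 8. Requiring 3 marker UMIs left 151 bead members and gave 517 perineurial and 330 age calls. The perineurial count was 431 without members admitted by Sema3c alone and 493 without members of a single marker gene, which left 125 bead members; both settings were chosen after seeing the data, and put the dividing share of bead members at 4.08% and 3.2%. Thinning put it at 4.35% in the FACS and 3.98% in the bead library. The age comparison called 977 genes without a filter on low counts, 513 against the uninjured and 613 against the 3 DPI library alone, and 18 to 88 when a neonatal library was left out. The cause of these shifts was not tested. Within neonatal nerve, leaving out a library leaves no residual degrees of freedom, and no test was made.

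No named gene changed direction under any alternative. Of 24 genes each, 9 in the endoneurial, 5 in the perineurial and 6 in the age comparison were tested and called under every alternative, and of 20 in the Pi16 or Dpp4 comparison 0 were. In these comparisons 7, 13, 8 and 12 of the named genes were not tested in at least 1 alternative. The perineurial comparison rests on 30 FACS and 74 bead cells.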
